A study of Homo sapiens with 16 samples.

Results

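Transcription factors that set the identity of airway epithelial cells were followed as a group of 10 genes, ELF3, FOXI1, FOXA1, FOXA2, NKX2-1, GRHL1, GRHL2, EHF, SPDEF and KLF5. ELF3 and FOXI1 were chosen by their fall with hepatocyte growth factor (HGF) on these same arrays, and the other 8 were added as factors with related roles. That addition was also made with earlier results of these data known. The 10 genes, of 42665 gene names on the array, were read by 13 of 58201 probes. Testing needed a signal well above background (a flag of the scanner software) in 4 or more arrays of the 16, which kept 11 of the 13 probes and 9 of the 10 genes, against 26368 genes over the whole array. NKX2-1 was the gene without a tested probe.

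The study asked how cells that carry a MET receptor lacking exon 14 respond to HGF, the ligand of MET. RNA of 16HBE human bronchial epithelial cells, a line immortalised with SV40 large T antigen, was hybridised to 16 one-colour arrays, 4 for each of 4 conditions. The replicates were stated to be cultures a week apart, but nothing in the labels ties an array to a week. 16HBE-WT cells kept the unedited MET gene, and 16HBE-ex14 cells were CRISPR-edited to skip exon 14; both were serum-starved for 2 h and then left without HGF. 16HBE-WT+HGF and 16HBE-ex14+HGF cells were starved in the same way and received HGF at 20 ng/mL for 24 h. 16HBE-ex14 was 1 edited clone, so the edit and other differences of that clone cannot be told apart. MET, read by 1 probe whose place relative to exon 14 was not analysed here, had a mean log2 level of 4.98 in 16HBE-WT and 5.11 in 16HBE-ex14, so it does not check the edit.

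Levels are log2 intensities relative to the 75th percentile of their array, so that 0 is the percentile itself, and they are compared between arrays only for the same probe. A gene was called when its limma adjusted p was below 0.05 and its fold change above 1.5. The epithelial label was checked first. All 5 epithelial markers (KRT8, KRT18, KRT19, EPCAM and CDH1) were well above background on every array, KRT18 with the highest signal, and their summed intensity was 280000 to 407000. Signals of different probes are not on a common scale. These sums were also not scaled to the 75th percentile of their array, which ran from an intensity of 139.5 to 262.8. They therefore describe the arrays and compare neither arrays nor cell types. Of 7 fibroblast markers 2 or 3 passed on each array, with a sum of 83.4 to 231, COL1A1 with the highest signal and COL1A2, COL3A1, DCN and THY1 on no array. Of 3 endothelial markers 2 passed, with a sum of 46.9 to 123, CDH5 with the highest signal and PECAM1 on no array. Of 3 immune markers with a probe 2 or 3 passed, with a sum of 60.2 to 144 and PTPRC with the highest signal, and of 4 neuroendocrine markers 1 or 2 passed, with a sum of 20.9 to 131, CHGA with the highest signal and INSM1 on no array. Of these marker genes, LUM and CD3E were called lower and CHGA higher in 16HBE-ex14 over both HGF states; their part in the results was not tested. LUM was well above background on all 8 arrays of 16HBE-WT and 16HBE-WT+HGF and on none of the other 8, so it has no measured fold. It passed the filter only through those arrays and would not have been tested without them, which limits its call. SFTPB, a surfactant gene of alveolar cells, was on no array, and FOXJ1, a factor of ciliated cells, on 8 of 16.

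These factors divide the work of building and maintaining the airway lining. ELF3, EHF and SPDEF belong to the ETS family of epithelial tissues and act in terminal differentiation, SPDEF above all in mucous cells. FOXI1 directs the ionocyte, a rare cell rich in chloride channels and proton pumps, while FOXA1, FOXA2 and NKX2-1 open and maintain the gene programs of foregut and lung endoderm, grainyhead-like factors GRHL1 and GRHL2 keep junction genes active, and KLF5 acts in basal and progenitor cells.

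The bases that lie ahead of the transcription start are shown for ELF3 and FOXI1, the genes chosen by their fall with HGF, and for EHF, a factor of the ETS family that was higher with HGF in 16HBE-ex14. They are RefSeq promoter sequences of GRCh38.p14, all on the plus strand, 250 bases each ending at the base before the start: ELF3 at chr1:202010337-202010586, FOXI1 at chr5:170105647-170105896, and the 2 listed starts of EHF at chr11:34624007-34624256 and chr11:34632316-34632565. Capitals mark matches to any of 7 motifs searched on both strands.
ELF3: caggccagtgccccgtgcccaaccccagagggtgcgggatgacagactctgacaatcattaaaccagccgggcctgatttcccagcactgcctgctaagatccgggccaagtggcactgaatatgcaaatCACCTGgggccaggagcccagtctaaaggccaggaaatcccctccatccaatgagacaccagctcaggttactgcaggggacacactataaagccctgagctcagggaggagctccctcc
FOXI1: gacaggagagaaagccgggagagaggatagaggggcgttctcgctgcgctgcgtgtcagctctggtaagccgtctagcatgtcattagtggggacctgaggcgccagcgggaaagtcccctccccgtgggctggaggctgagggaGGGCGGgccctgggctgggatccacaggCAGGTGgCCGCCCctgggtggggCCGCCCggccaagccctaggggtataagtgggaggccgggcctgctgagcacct
EHF start 1: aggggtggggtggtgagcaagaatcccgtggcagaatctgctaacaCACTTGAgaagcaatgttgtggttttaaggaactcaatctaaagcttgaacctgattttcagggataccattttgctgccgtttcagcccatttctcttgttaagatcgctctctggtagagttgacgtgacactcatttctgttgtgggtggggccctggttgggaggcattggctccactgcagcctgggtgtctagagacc
EHF start 2: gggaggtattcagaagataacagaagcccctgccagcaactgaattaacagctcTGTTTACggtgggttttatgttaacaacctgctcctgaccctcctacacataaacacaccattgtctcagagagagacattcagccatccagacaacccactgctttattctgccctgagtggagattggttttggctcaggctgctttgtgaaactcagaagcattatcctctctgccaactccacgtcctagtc
The CACCTG motif, an E-box, matched once in ELF3, 120 bases before the start counted from its first base, and once in FOXI1, 77 bases before. It was present in 17.5% of 35116 promoter windows of this length. GGGCGG matched 3 times in FOXI1, against 42.6% of windows with a match. CACTTGA, a motif of NKX2 factors, was found at the first EHF start and in 2.06% of windows, and TNTTTAC, a forkhead motif, at the second EHF start and in 9.58%. TGANTCA (6.57% of windows), CCGGAAGT (3.42%), an ETS motif, and AACCGGTT (0.117%), a grainyhead motif, were in none of the 4 windows. GC content was 58.4% for ELF3 and 68.4% for FOXI1 beside a median of 58% over all windows. These matches describe letters only; 8 of the 10 members had a promoter in the table.

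ELF3, an ETS factor of epithelial differentiation, had log2 levels of 3.47, 3.14, 3.57 and 3.48 on the 4 16HBE-WT arrays and of 3.06, 3.13, 2.89 and 3.22 with HGF. In 16HBE-ex14 the levels were 2.59, 3.14, 2.42 and 3.19, and with HGF 1.78, 1.45, 1.05 and 1.16. Every 16HBE-ex14+HGF array lay below every array of the other 3 conditions, whereas the 16HBE-WT arrays with and without HGF overlapped. The means ran from 3.41 ± 0.19 (SD, n = 4) in 16HBE-WT through 3.07 ± 0.14 and 2.83 ± 0.39 to 1.36 ± 0.33 in 16HBE-ex14+HGF. The log2 difference with HGF was -1.47 in 16HBE-ex14, 2.78-fold, and -0.34 in 16HBE-WT, values that selected ELF3 and are given as description. They were -1.25 and -0.21 within slide 1 and -1.70 and -0.47 within slide 2.

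The estimate of the mean genotype difference over both HGF states is uncorrelated with those of the HGF contrasts in this balanced design, and it was tested for all members. It averages in the arrays with HGF, so a fall with HGF in 16HBE-ex14 alone also enters it. ELF3 was lower in 16HBE-ex14 by this test, with a log2 fold change of -1.15 (SE 0.13, 95% interval -1.43 to -0.86, adjusted p = 1.49e-05). It was -0.96 within slide 1 and -1.34 within slide 2, and was called in each. The difference was -0.58 without HGF, where the arrays of the genotypes overlapped, and -1.71 with HGF, both given as description, so a genotype difference of ELF3 without HGF was not tested. The RNA was bulk, so fewer cells with the transcript and less transcript per cell cannot be told apart, here and for all genes that follow.

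ELF3-AS1, a noncoding RNA whose RefSeq start lies 234 bases from that of ELF3 on the opposite strand, was looked at after its values had been seen. Its level was 0.27, 0.42, -0.14 and 0.18 in 16HBE-ex14 and -0.32, -0.52, -0.79 and -0.70 with HGF, without overlap. It fell by 0.77 on the log2 scale (SE 0.16, adjusted p = 0.0201) and was called lower, though leaving out any of 5 single 16HBE-ex14 or 16HBE-ex14+HGF arrays ended that call (adjusted p 0.0537 to 0.0788). A second, dimmer probe gave -1.16 (adjusted p = 0.226). Over both HGF states ELF3-AS1 differed between genotypes by 0.12 (adjusted p = 0.475), unlike the value of ELF3. Among the 18 tested genes within 500 kb of ELF3 on hg19, ELF3-AS1 was the single gene called with HGF in 16HBE-ex14, beside 2.1% of all genes, and RNPEP, 9.3 kb away, had -0.15 (adjusted p = 0.554).

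FOXI1, the ionocyte factor, had log2 levels of -2.63, -2.85, -2.48 and -2.43 in 16HBE-WT and of -3.30, -3.40, -3.91 and -2.88 with HGF. In 16HBE-ex14 they were -2.51, -1.18, -2.87 and -1.63, and with HGF -2.90, -4.88, -5.18 and -4.46. The HGF arrays lay below the unstimulated arrays in both genotypes, but barely. The nearest levels without and with HGF were -2.85 and -2.88 in 16HBE-WT and -2.87 and -2.90 in 16HBE-ex14. The probe was well above background on 3 of 4 16HBE-WT+HGF arrays and on 1 of 4 16HBE-ex14+HGF arrays, so the lowest values are near the limit of measurement. The log2 difference with HGF was -2.31 in 16HBE-ex14 and -0.78 in 16HBE-WT, again the values FOXI1 was selected on; the first is no measured fold. With normexp background correction they were -0.69 and -0.16. Over both HGF states FOXI1 differed between genotypes by -0.22 (95% interval -0.89 to 0.45, adjusted p = 0.648), with 0.18 within slide 1 and -0.61 within slide 2. This averages 0.55 without HGF and -0.98 with HGF, given as description, and since it takes in the weak 16HBE-ex14+HGF signals it is no measured difference.

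ELF3 and FOXI1 also varied together among arrays of the same condition. In 16HBE-ex14 replicates 2 and 4 were high for both genes and replicates 1 and 3 low, and in 16HBE-ex14+HGF replicate 1 was highest for both. The deviations from the condition means correlated with Pearson r = 0.86 over 16 arrays, which share their RNA, labelling and slide. FOXI1 was well above background on 12 of the 16 arrays and on 1 of 4 in 16HBE-ex14+HGF, so the correlation takes in weak signals. For GRHL1 the correlation of deviations was 0.57 with ELF3 and 0.75 with FOXI1. For KLF5 it was 0.54 and 0.55, and for EHF -0.45 and -0.24.

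**Figure D1:**
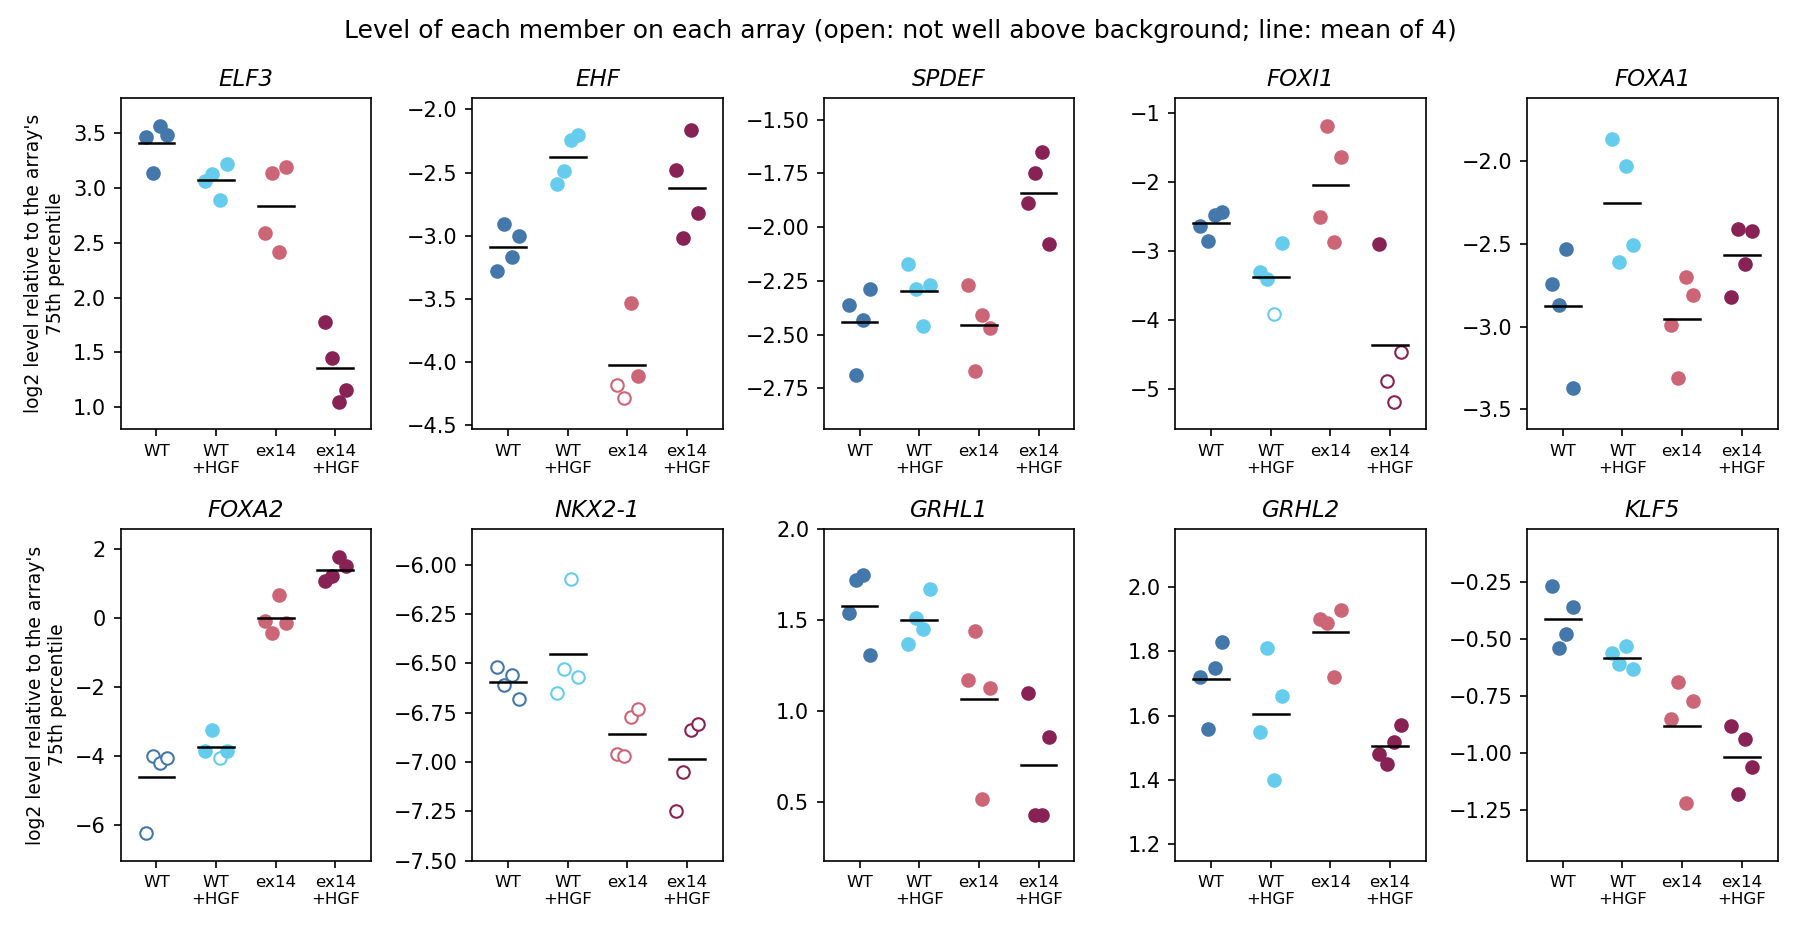
Log2 level of each of the 10 members on each of the 16 arrays, relative to the array's 75th percentile, with the mean of 4 arrays as a line; open points were not well above background. ELF3 was lowest in 16HBE-ex14+HGF (1.05 to 1.78), and FOXA2 was high in both 16HBE-ex14 conditions. EHF was higher on all arrays with HGF in each genotype. It was called in 16HBE-ex14 and not in 16HBE-WT, and a different response of the genotypes was not shown.

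The 5 genes whose level followed that of ELF3 most closely over the 16 arrays, of 26335 genes compared, were CLIC3, a chloride channel family protein (r = 0.986), ECEL1P2, TRIM29, a protein of basal and squamous epithelia, FGD3 and TFPI, an inhibitor of coagulation (r = 0.978). For FOXI1 they were ENTPD8 (r = 0.952), BAHD1, the transcript ENST00000562471, CGN, which encodes the tight junction protein cingulin, and DNAJC6 (r = 0.937). CLIC3 had mean levels of 4.93 and, with HGF, 4.34 in 16HBE-WT, and of 4.04 and, with HGF, 1.80 in 16HBE-ex14, the order also seen for ELF3. The 5 genes closest by rank correlation shared 1 gene with these for ELF3 and 1 for FOXI1. These are correlations over 4 conditions and carry no test.

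HGF in 16HBE-ex14 called 2 of the 7 tested members other than ELF3 and FOXI1, both higher, beside 2.1% of all genes (553 of 26368). The median log2 fold change of these 7 was 0.39, against 0.06 over all genes. EHF, an ETS factor of ELF3's subfamily, had levels of -4.18, -4.28, -3.53 and -4.11 in 16HBE-ex14 and of -2.48, -3.02, -2.16 and -2.82 with HGF. All arrays with HGF were higher than all without, although without HGF the signal passed the background flag on 2 of 4 arrays. EHF rose by 1.40 on the log2 scale, 2.65-fold (SE 0.19, adjusted p = 0.00184), while ELF3 stood lower on the same arrays. The change was 1.48 within slide 1 and 1.33 within slide 2, where no gene on the array passed the limits, and 0.36 with normexp, which is under the fold limit.

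SPDEF, the mucous cell factor, had levels of -2.27, -2.67, -2.41 and -2.47 in 16HBE-ex14 and of -1.89, -1.75, -1.65 and -2.08 with HGF. The arrays did not overlap, and SPDEF rose by 0.61, 1.53-fold (SE 0.12, adjusted p = 0.0141), just past the fold limit. It was under a limit with each of the 4 other scalings or background corrections, with values of 0.27 to 0.53, without replicate 2 of 16HBE-ex14 or replicate 2 or 3 of 16HBE-ex14+HGF (0.54 to 0.58), and within each slide (0.65 and 0.58). FOXA2 had no overlap either, with a log2 fold change of 1.39 (SE 0.41, adjusted p = 0.0983). Its standard error came in part from 16HBE-WT replicate 1, an array outside this comparison at -6.22. Without that array the change was 1.39 with SE 0.23 (adjusted p = 0.00749), and with normexp 1.16 (adjusted p = 0.000107). No other setting called it: it stayed uncalled in 14 of 15 alternatives and in 15 of 16 fits without a single array. A fit of the compared arrays alone, which leaves out all 16HBE-WT arrays, did not call it either. GRHL2 was not called either, at -0.36 (adjusted p = 0.0663).

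In 16HBE-WT limma called 0 of the same 7 members, beside 0% of all genes; 2 of the 7 had an unadjusted p below 0.05, as did 1681 of 34599 probes. EHF had levels of -3.28, -2.91, -3.17 and -3.00 without and -2.59, -2.49, -2.24 and -2.20 with HGF, which did not overlap. The log2 fold change was 0.71 (SE 0.19, adjusted p = 0.880). FOXA1 had 0.62 (adjusted p = 0.886) and SPDEF 0.14 (adjusted p = 1). The difference between the responses of the genotypes was also called for 0 of 7 members and 0% of genes by limma; 2 members (EHF at 0.69 and SPDEF at 0.47) and 1586 probes had an unadjusted p below 0.05. A different response to HGF in the genotypes was therefore not shown for any of these 7 members.

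**Figure D2:**
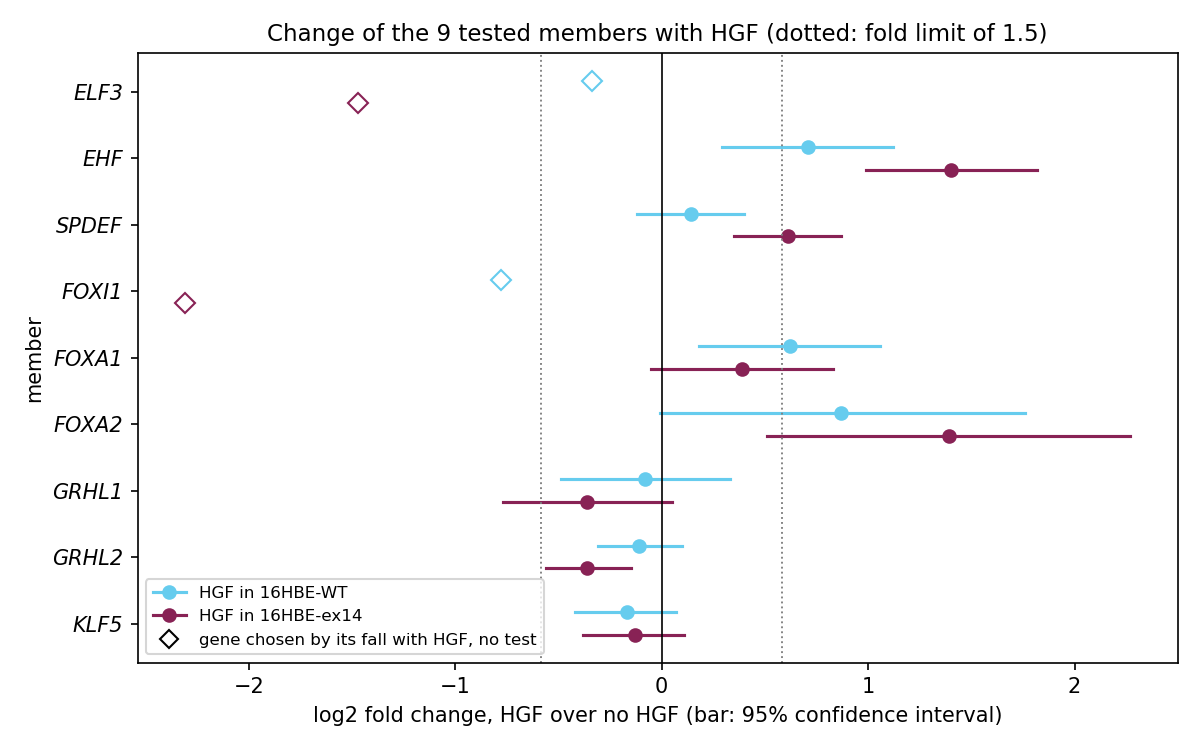
Log2 fold change with HGF of the 9 tested members in each genotype, with 95% confidence intervals; diamonds mark ELF3 and FOXI1, which were chosen by this change and carry no test. EHF (1.40) and SPDEF (0.61) passed both limits in 16HBE-ex14; for FOXA2 in 16HBE-WT the probe was not well above background without HGF, so the fitted value is no measured fold.

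Over both HGF states 4 of the 9 tested members were called between genotypes, 1 higher and 3 lower in 16HBE-ex14, beside 11% of all genes (2904 of 26368). ELF3, selected by its fall with HGF, was 1 of the 4. The other 3 were among the 7 members not selected that way. The median log2 fold change of the 9 was -0.22, against -0.01 over all genes. FOXA2, a pioneer factor of endoderm, had levels of -6.22, -3.98, -4.20 and -4.06 in 16HBE-WT, where no array was well above background, and of -3.85, -3.25, -4.05 and -3.84 with HGF, where 3 were. In 16HBE-ex14 the levels were -0.09, -0.43, 0.68 and -0.15, and with HGF 1.08, 1.22, 1.77 and 1.5. The conditions of the genotypes were far apart, with no overlap in either HGF state. Over both states FOXA2 was called higher (adjusted p = 2.82e-08). It passed the filter through 8 arrays of 16HBE-ex14 and 16HBE-ex14+HGF and 3 of 16HBE-WT+HGF, and without the former it would not have been tested. The same limit holds for its calls in each HGF state below. FOXA2 is also the 1 member counted as higher.

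Without HGF 2 of 7 members were called, 1 in each direction, beside 9.26% of genes. FOXA2 was at least 17.4-fold higher in 16HBE-ex14 (adjusted p = 5.1e-06), a bound for which replicate 1 of 16HBE-WT was raised to the lowest signal well above background on its array and the other 3 arrays entered at their own levels. The bound holds for this background correction, and with normexp the log2 fold change was 1.78. With HGF 2 of 7 were called, again 1 in each direction, beside 10.6% of genes. FOXA2 was called higher there, with a fitted log2 fold change of 5.14 (SE 0.41, adjusted p = 1.59e-06), or 2.78 with normexp. The 16HBE-WT+HGF signal was near the limit of measurement and well above background on 3 of 4 arrays, so 5.14 is no measured fold. FOXA2 was called within each slide, at fitted values of 4.70 and 5.58. Of the 10 tested genes within 500 kb of FOXA2 on hg19, looked at after the values had been seen, THBD, the gene of thrombomodulin, was called higher over both HGF states (0.93, adjusted p = 0.00593), beside 11% of all genes called, and higher with HGF in 16HBE-ex14 (1.69, adjusted p = 0.0122). The noncoding lnc-FOXA2-1, 7.7 kb away, had 0.04 (adjusted p = 0.897). FOXA1, a close relative of FOXA2, was not called, with -0.19 (95% interval -0.50 to 0.12, adjusted p = 0.345). That value is from a probe designed to the transcript ENST00000557418; the probe to the RefSeq transcript was well above background on 3 of 16 arrays and was not tested.

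GRHL1 was lower in 16HBE-ex14. Its levels were 1.54, 1.72, 1.75 and 1.31 in 16HBE-WT, 1.37, 1.51, 1.45 and 1.67 with HGF, 1.17, 1.44, 0.52 and 1.13 in 16HBE-ex14, and 1.10, 0.43, 0.43 and 0.86 with HGF. The genotypes overlapped without HGF and were apart with it. The log2 fold change was -0.66 over both states (SE 0.14, adjusted p = 0.00177) and -0.80 with HGF (SE 0.19, adjusted p = 0.00862). The first was under the fold limit without 16HBE-ex14 replicate 3 (-0.56) and with 3 of the 4 other scalings or background corrections (-0.54 to -0.57), and a second, dimmer probe gave -0.48 (adjusted p = 0.0289). GRHL1 was also not called over both states within slide 1, nor with HGF within slide 1 or slide 2. GRHL2, which keeps junction genes active, had 0.02 on its brighter probe (95% interval -0.13 to 0.17, adjusted p = 0.852) and ran from 1.40 to 1.93 over the 16 arrays.

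EHF lay lower in 16HBE-ex14 than in 16HBE-WT without HGF, with no overlap of the levels given above, at -0.93 (SE 0.19, adjusted p = 0.00373). The signal was well above background on 2 of these 4 16HBE-ex14 arrays, and with normexp the value was -0.36, under the fold limit. With HGF the difference was -0.24 (adjusted p = 0.447). Over both states it was -0.59 (adjusted p = 0.00414), a value at the fold limit that fell under it without any of 9 single arrays (-0.52 to -0.57), with each of the 4 other scalings or background corrections (-0.30 to -0.50) and with array weights (-0.55). Within slide 2 EHF was called neither over both states nor without HGF. KLF5 passed the p limit but not the fold limit, with -0.45 (SE 0.08, adjusted p = 0.000569) and levels without HGF from -0.54 to -0.27 in 16HBE-WT and from -1.22 to -0.69 in 16HBE-ex14. SPDEF had 0.22 (adjusted p = 0.0613). NKX2-1 was not well above background on any of the 16 arrays.

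**Figure D3:**
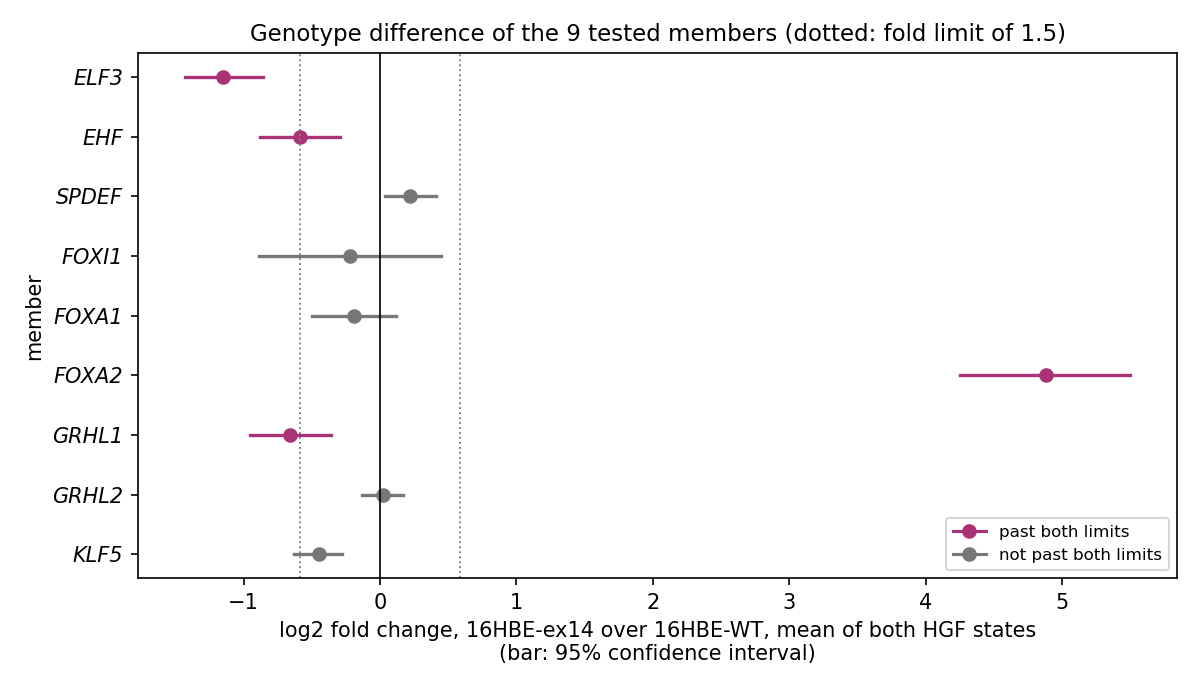
Log2 fold change of 16HBE-ex14 over 16HBE-WT, averaged over both HGF states, for the 9 tested members, with 95% confidence intervals. FOXA2 was far to the right, although its probe was not well above background in 16HBE-WT, so its value is no measured fold; ELF3 (-1.15), GRHL1 (-0.66) and EHF (-0.59) were past both limits on the left.

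Relatives of these factors, targets and cell type markers were read from 8 lists, where a count of called genes stands beside 2.1% of all genes with HGF in 16HBE-ex14 and 11% between genotypes. Of 15 grainyhead and epithelial junction genes, all tested, HGF in 16HBE-ex14 called 0 by limma, though 6 had an unadjusted p below 0.05, with a median log2 fold change of -0.13. CDH1, the gene of E-cadherin, had -0.58 (adjusted p = 0.0358), under the fold limit, and CLDN4, a tight junction claudin, -0.13 (adjusted p = 0.680). Between genotypes over both states 1 of the 15 was called, and the median was 0.13.

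Of 13 ionocyte genes 7 were tested, and HGF in 16HBE-ex14 called 1, the proton pump subunit gene ATP6V0A4, which fell by 0.75 (SE 0.13, adjusted p = 0.00767). The chloride channel gene CFTR had 0.05 (adjusted p = 0.848) and ASCL3, a factor of ionocytes, was on no array. The genotypes differed in 0 of the 7 by limma, with 2 at an unadjusted p below 0.05, and the medians were 0.24 and -0.11. Of 15 secretory cell genes 9 were tested; HGF called 0 (1 at an unadjusted p below 0.05) and MUC5AC, a gel-forming mucin gene, had -0.12 (adjusted p = 0.915). Between genotypes 2 of these 9 were called, LCN2, the siderophore-binding lipocalin, higher by 1.65 (adjusted p = 4.32e-07) and SLPI, a protease inhibitor, at -1.54 (adjusted p = 4.66e-05), with medians of 0.03 and 0.11.

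Of 11 tested basal cell genes of 12, HGF in 16HBE-ex14 called 2 lower, the basal keratins KRT5, at -2.31 (SE 0.19, adjusted p = 0.000148), and KRT14, at -0.96 (SE 0.22, adjusted p = 0.0294). KRT5 had mean levels of 2.64 and, with HGF, 2.01 in 16HBE-WT, and of 0.06 and, with HGF, -2.25 in 16HBE-ex14. KRT5, KRT14 and COL17A1, a hemidesmosome collagen, were the 3 called between genotypes, at -3.41, -1.97 and -1.81 (adjusted p = 2.88e-10, 4.05e-07 and 3.56e-06). Looked at after their values were seen, ITGA6, an integrin gene, had 0.49 with HGF (adjusted p = 0.00629), under the fold limit with all arrays higher, and between genotypes KRT15 had 0.58 (adjusted p = 0.000883) and DLK2 0.32 (adjusted p = 0.00109), also under it. The median of the 11 genes was -0.01 with HGF and -0.20 between genotypes. Of 14 tested squamous differentiation genes of 15, HGF called 2 lower, the cornified envelope transglutaminase TGM1 (-1.41, adjusted p = 0.00052) and the protease gene KLK7 (-0.94, adjusted p = 0.0224), and 1 higher, the envelope precursor SPRR2A (0.99, adjusted p = 0.0175). Between genotypes KLK7 (1.07, adjusted p = 5.68e-05), SPRR3 (0.99, adjusted p = 0.00719) and SPRR1B (0.92, adjusted p = 0.000686) were called higher, SPRR1B with overlapping arrays without HGF. The medians of the 14 genes were 0.13 with HGF and 0.11 between genotypes.

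Alveolar and NKX2-1 target genes were called in 3 of 7 tested genes of 10 between genotypes, all higher: LAMP3 at 1.35 (adjusted p = 5.28e-07), the surfactant gene SFTPD at 1.30 (adjusted p = 0.00159) and the lipid transporter gene ABCA3 at 1.05 (adjusted p = 1.96e-07). Their median was 0.37, and HGF in 16HBE-ex14 called 0 of the 7 (0 at an unadjusted p below 0.05) with a median of 0.16. Of 11 tested ciliated cell genes of 15, HGF called 0 (2 at an unadjusted p below 0.05) and 1 was called higher in 16HBE-ex14, MCIDAS, a regulator of multiciliated cells. It passed the filter through 7 arrays of 16HBE-ex14 and 16HBE-ex14+HGF and was well above background on no array of the other genotype, so no fold is given. The medians were -0.01 and 0.12. Of 6 tested paralogues of 8, HGF called 0 (0 at an unadjusted p below 0.05), and GRHL3, the epidermal grainyhead factor, was lower in 16HBE-ex14 by a log2 fold change of -0.76 (adjusted p = 0.000781), with overlapping arrays without HGF; the medians were -0.08 and -0.20. Over all genes the median was 0.06 with HGF in 16HBE-ex14 and -0.01 between genotypes. HGF in 16HBE-WT and the difference of responses called 0 genes in every list, as over the whole array.

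**Figure D4:**
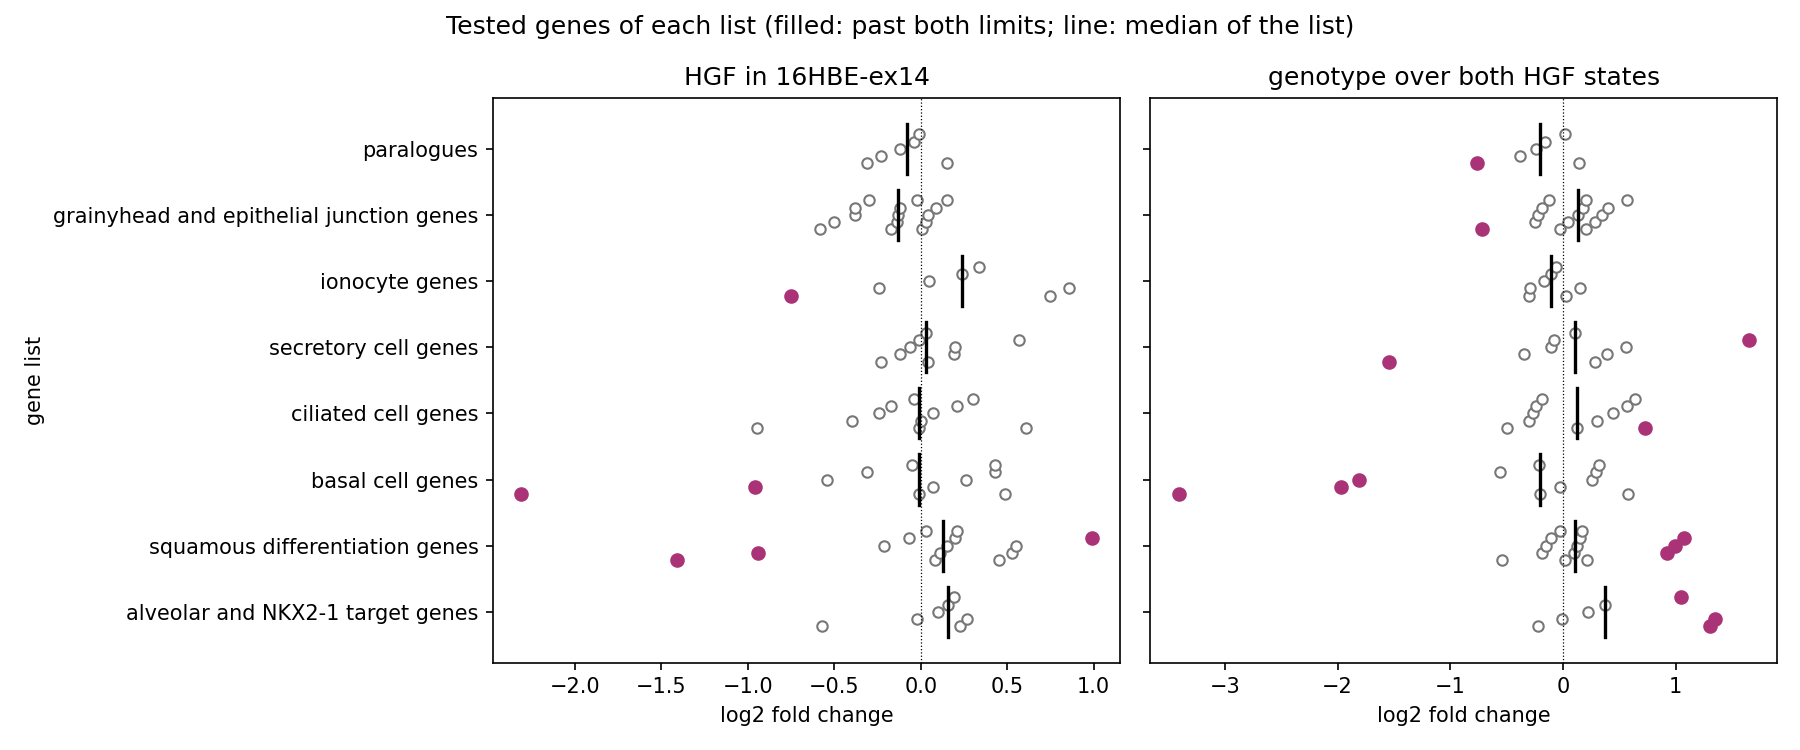
Log2 fold change of the tested genes of each list with HGF in 16HBE-ex14 (left) and between genotypes over both HGF states (right); filled points passed both limits and the line is the median of the list. KRT5 was lowest in both panels (-2.31 and -3.41), while the list medians lay between -0.20 and 0.37.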

How the data were processed

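The authors extracted spot intensities with Feature Extraction 10.7.3.1, and the deposited intensity values used here were the processed signals, background-corrected per the file headers. Here, 1093 outlier spots were left out, log2 intensities were taken relative to each array's 75th percentile, spots of a probe were averaged and probes not well above background on at least 4 of 16 arrays were not tested. limma 3.58.1 in R 4.3.3 fitted 1 mean per condition over all 16 arrays (lmFit, eBayes, Benjamini-Hochberg over 34599 probes). A gene was represented by its brightest tested probe. The fit was tested on simulated data. Figures and motif counts used Python 3.11.15 and matplotlib 3.10.9. The number of arrays, 4 per condition, limits the precision. The p-values measure the spread between arrays of the same condition, pooled over the 4 conditions, which includes differences between slides. With 1 edited clone they hold no spread between clones.

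Genes were named by rule: the members, the 5 genes most correlated with ELF3 and with FOXI1, up to 4 called genes of each list whose arrays do not overlap, and SPRR2A, SPRR1B, CLDN4, CDH1, ASCL3, CFTR, MUC5AC and SFTPB. Other genes were named where few were called or after their values were seen. The result of 1 called list gene is not reported here. Members and lists were chosen with earlier results of these data known. Alternatives were normexp with offset 50, quantile, array median and E1A spike-in scaling, other filters, slide and slide row as blocks, other priors and weights, fewer arrays in the fit, single slides and leaving out each array.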

Additional observations from a re-analysis of the deposited data

Results flagged for a closer look

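Among 52 groups of 4 arrays, 13 probes in 4 conditions, 3 held an array whose gap to the nearest other array was past the Dixon limit for 4 values; chance gives about 1 in 20 such groups. FOXA2 on 16HBE-WT replicate 1 was at a log2 level of -6.22, with the other 3 arrays between -4.20 and -3.98 and none of the 4 well above background. GRHL2 on 16HBE-ex14 replicate 3 was at 1.72, with the others between 1.89 and 1.93. The second GRHL2 probe on 16HBE-WT replicate 3 was at -0.64, with the others between -0.92 and -0.89.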

How the results depend on the processing

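All 15 alternatives other than leaving out arrays kept the direction of ELF3, FOXA2, EHF, SPDEF and GRHL1 in the comparisons where they were called, and ELF3 and FOXA2 were called between genotypes over both HGF states in each that gives this comparison. FOXI1, not called there, turned from -0.22 to 0.18 within slide 1, and SPDEF, not called there either, from 0.22 to -0.04 with normexp. Of the 7 tested members, HGF in 16HBE-ex14 called 2; this was 1 with normexp (FOXA2, with EHF and SPDEF lost), 1 with quantile, array median or E1A spike-in scaling and with a fit of the compared arrays alone (EHF each time), 0 within slide 1 and within slide 2, and 1 to 3 when single arrays were left out. Within a slide, 2 arrays a condition, 0 probes of the whole array were called for HGF. The lower leave-one-out counts came without replicate 2 of 16HBE-ex14 or replicate 2 or 3 of 16HBE-ex14+HGF (SPDEF lost), the higher without 16HBE-WT replicate 1 (FOXA2 gained). Between genotypes over both states the count of 4 was 2 with normexp, array median or E1A spike-in scaling, 3 with quantile scaling, array weights and within slide 1 and within slide 2, 5 with no fold change limit, and 3 to 4 when single arrays were left out, with EHF lost for 9 arrays and GRHL1 for 16HBE-ex14 replicate 3. Without HGF the count of 2 was 1 with normexp and within slide 2 and 3 with no fold change limit, and with HGF it was 1 within slide 1 and within slide 2 and 4 with no fold change limit; leaving out single arrays gave 2 to 3 and 2 to 2. The counts of 0 for HGF in 16HBE-WT and for the difference of responses remained 0 for the members in all settings run.

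With slide row as replicate block the members called were 2, 0, 0, 4, 2 and 2 in the 6 comparisons, as without the block. Rows do not pair the arrays: deviations of arrays in the same slide row correlated at 0.03 to 0.32, with 20 of 24 pairs above 0.1, and 3 of 16 arrays correlated best with their own row. Arrays of the same slide but another row correlated at a median of 0.21 and arrays of different slides at -0.20; slide as a block changed no count.

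Scaling shifts all genes. HGF in 16HBE-ex14 had 363 higher of 687 called probes (52.8%), and 176 of 719 (24.5%) with array median scaling, 40.5% with spike-ins; the median over all probes was 0.06, -0.11 and -0.03. Between genotypes over both states 48.1% of calls were higher, 68.4% with array median scaling, 63.8% with spike-ins and 58.8% with normexp; 38.1% were higher with no filter. Weak signal limits FOXI1 in 16HBE-ex14+HGF, EHF in 16HBE-ex14 and FOXA2 in 16HBE-WT. Where signal is near background, normexp brings fold changes toward 0. The low signal of SPDEF, although well above background on all 16 arrays, moved likewise, from 0.61 to 0.27 with HGF in 16HBE-ex14.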
